A study of Mus musculus with 10 samples.

Results

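The DNA methyltransferases Dnmt1, Dnmt3a, Dnmt3b and Dnmt3l, the Tet enzymes Tet1, Tet2 and Tet3, and Uhrf1 were chosen by symbol as the genes that write, maintain and remove DNA methylation. All 8 were found among the 22367 protein-coding genes of the GENCODE annotation of the mouse genome build mm9, and their values are given in 5 cell lines. ChIP-seq of H3K27me3, the trimethyl mark that the polycomb repressive complex PRC2 places on histone H3, was done in a parental lymphoma line and in the resistant lines R100, R500, R1000 and R4000. The parental line comes from a B-cell lymphoma of a C57BL/6J Eμ-Myc Cdkn2a-/- mouse, in which an immunoglobulin heavy chain enhancer drives Myc in the B lineage and the tumour suppressor Cdkn2a is deleted. The resistant lines were derived from it by stepwise culture in mafosfamide, an alkylating agent and in vitro active form of cyclophosphamide, and are named by the dose of 100, 500, 1000 or 4000 nM. All 5 lines carry the transgene and the deletion, all descend from 1 parental culture, and all were grown without mafosfamide for ChIP-seq. DNA methylation in the same lines was not analysed here.

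Methylation of cytosine in CpG dinucleotides is set up by Dnmt3a and Dnmt3b, with the inactive relative Dnmt3l as their partner. It is copied after replication by Dnmt1, which Uhrf1 brings to hemimethylated sites. The Tet enzymes oxidise methylcytosine, the first step of its removal. H3K27me3 is a mark of genes held silent by polycomb complexes, and it is found mostly at CpG-rich start sites, which usually lack DNA methylation.

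The data are 1 list of peak positions per line, with 10778 distinct peaks for the parental line, 25180 and 21888 for R100 and R500, and 9595 and 6820 for R1000 and R4000. The lists cover 1.63, 5.04, 4.53, 1.61 and 1.07 Mb in that order. They give no height, score or read count, so the depth is unknown, and 1 list per line was used. Replicates were made, but whether a list pools them is not given in the sources used here, and without a list per replicate differences between lines could not be tested. The lists of R100 and R500 are the longest, and the part of list length in each result below was not tested, beyond a count on lists of equal number. R4000, with the shortest list, held 3 members with a covered base, and the parental line held 1. In R4000, Dnmt3a was covered at 50 bases only. A minimum of 150 covered bases gave 2 members in R4000 and 1 in the parental line. Among all protein-coding genes the shares were 14.0% in R4000 and 12.9% in the parental line. A base was counted as covered where it lay in a peak, over a window from 5 kb upstream of the start site to the end of the gene. The lists hold no expression, so the labelled B-cell identity could not be checked against marker levels. The window of Cdkn2a held 0 covered bases in all 5 lists. This does not check the deletion, since the lists hold no signal for regions outside peaks. Of 18 lineage markers, 9 had no covered base in any list, among them 3 of 8 B-cell genes, 1 of 5 T-cell genes, all 3 myeloid and both erythroid genes, and 57.2% of all protein-coding genes had none.

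The sequences below lie at peaks of Tet1, Dnmt3b, Tet2, Uhrf1 and Dnmt1, and not all member peaks are printed. They are read from mm9 in the direction of the gene, 5′ to 3′. The first is the 250 bases upstream of the Tet1 start site of RefSeq, which was placed in mm9 by an exact match of the RefSeq promoter, at chr10:62350073-62350322 on the minus strand, with the bases under a parental peak in capitals.
Tet1 promoter: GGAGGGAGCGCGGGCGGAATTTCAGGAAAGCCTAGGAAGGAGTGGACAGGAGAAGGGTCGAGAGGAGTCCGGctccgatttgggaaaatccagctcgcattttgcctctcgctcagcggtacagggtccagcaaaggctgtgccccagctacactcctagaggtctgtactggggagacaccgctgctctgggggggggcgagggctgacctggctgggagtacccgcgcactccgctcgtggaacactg
The next lies downstream of the same start site, at chr10:62349001-62349300 on the minus strand, within the first intron of the GENCODE gene. It holds 2 of the 3 blocks that were covered in all 5 lines, in capitals.
Tet1 first intron: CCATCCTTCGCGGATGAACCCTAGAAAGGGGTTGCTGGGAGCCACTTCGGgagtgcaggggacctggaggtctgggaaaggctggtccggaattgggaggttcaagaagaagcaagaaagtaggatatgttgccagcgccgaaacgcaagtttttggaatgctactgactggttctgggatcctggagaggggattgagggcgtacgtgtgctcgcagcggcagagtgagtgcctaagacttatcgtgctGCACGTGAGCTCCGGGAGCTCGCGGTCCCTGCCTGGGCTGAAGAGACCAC
The R4000 peak in the first intron of Dnmt3b, at chr2:153475501-153475800 on the plus strand, is shown with the bases also covered in R100 and R500 in capitals.
Dnmt3b: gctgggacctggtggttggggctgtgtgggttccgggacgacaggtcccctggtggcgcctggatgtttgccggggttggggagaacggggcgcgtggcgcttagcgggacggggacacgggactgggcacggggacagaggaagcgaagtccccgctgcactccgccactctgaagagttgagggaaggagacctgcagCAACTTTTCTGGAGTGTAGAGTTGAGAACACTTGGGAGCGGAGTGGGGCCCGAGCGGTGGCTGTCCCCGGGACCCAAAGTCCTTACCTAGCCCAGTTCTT
The R100 peak of Tet2, at chr3:133207001-133207150 on the minus strand, is shown with the bases also covered in R500 in capitals.
Tet2: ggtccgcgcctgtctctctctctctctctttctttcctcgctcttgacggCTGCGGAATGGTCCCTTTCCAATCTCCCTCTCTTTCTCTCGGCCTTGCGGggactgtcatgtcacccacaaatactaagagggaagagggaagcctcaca
The R100 peaks of Uhrf1, at chr17:56443051-56443200 on the plus strand, and of Dnmt1, at chr9:20756601-20756900 on the minus strand, shared no base with a peak of another line and have no capitals.
Uhrf1: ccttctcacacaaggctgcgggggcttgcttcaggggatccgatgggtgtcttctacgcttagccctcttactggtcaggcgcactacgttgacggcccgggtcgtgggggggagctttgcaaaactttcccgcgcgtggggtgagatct
Dnmt1: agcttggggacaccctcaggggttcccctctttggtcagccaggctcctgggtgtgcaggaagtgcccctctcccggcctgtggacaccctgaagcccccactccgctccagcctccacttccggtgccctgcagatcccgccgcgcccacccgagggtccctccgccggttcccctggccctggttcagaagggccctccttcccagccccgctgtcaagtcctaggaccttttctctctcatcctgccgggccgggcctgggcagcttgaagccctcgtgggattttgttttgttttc
The Tet1 sequences hold 15 and 16 CpG in 250 and 300 bases. Those of Dnmt3b, Tet2, Uhrf1 and Dnmt1 hold 19, 7, 11 and 13 in 300, 150, 150 and 300 bases. Per 1000 bases the sequences of Dnmt3b, Tet2, Uhrf1 and Dnmt1 hold 63.3, 46.7, 73.3 and 43.3 CpG. Over the whole genome there are 8.34 CpG per 1000 bases. The peaks of Dnmt3a, which are not printed, held 0 to 2 CpG each, or 0 to 40 per 1000 bases. Some unprinted peaks of Dnmt3b and Tet1 also held 0.

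Most of the 8 genes had no H3K27me3 peak in the parental line and a small one in the R100 line. A covered base was found in 1 of 8 genes in the parental line, 7 and 5 in R100 and R500, and 2 and 3 in R1000 and R4000. Among all protein-coding genes, 12.9% had a covered base in the parental line, and 34.3%, 27.2%, 16.1% and 14.0% did in R100, R500, R1000 and R4000. Over this window the members' share was therefore near that of all genes in the parental line. In each of the 4 resistant lines the members' share was above that of all genes, at 87.5% in R100 and 62.5% in R500. The windows of the members are long, with a median of 67.5 kb against 20.4 kb over all genes. A count that does not grow with gene length, any covered base within 2 kb of the GENCODE start site, gave 0 genes in the parental line against 6 in R100 and 4 in R500, with 1 in R1000 and 2 in R4000. The shares of all genes under this rule were 8.31%, 28.2%, 21.4%, 12.6% and 11.1%. In R1000 the count of 1 of 8 members was thus near the share of all genes, not above it.

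**Figure D1:**
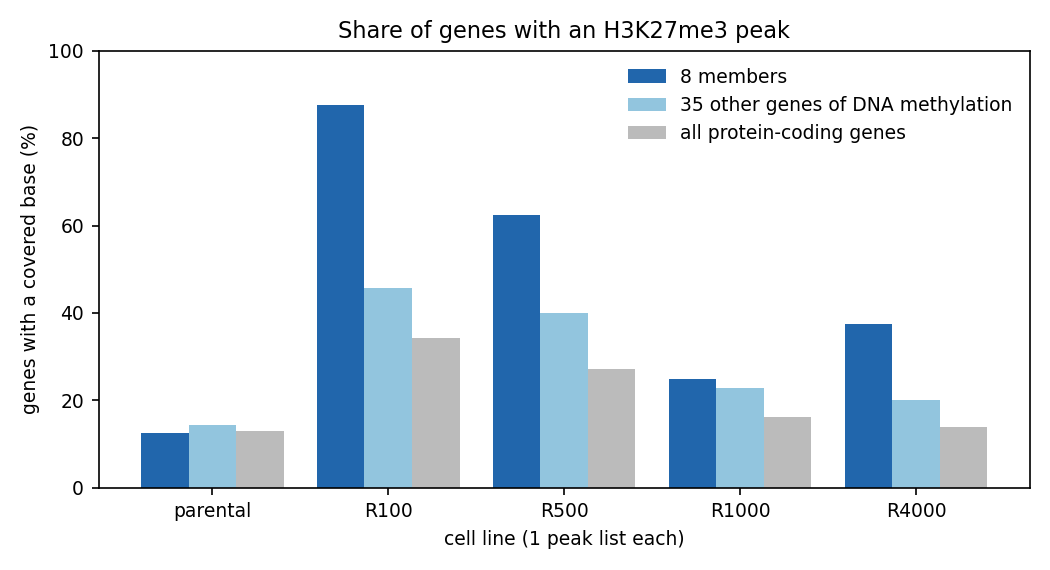
Percentage of genes (vertical axis) with at least 1 base covered by an H3K27me3 peak in each of the 5 cell lines (horizontal axis), for the 8 members, 35 other genes of DNA methylation and all 22367 protein-coding genes, with 1 peak list per line and no error. The members stand at 12.5% in the parental line and 87.5% in R100.

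When each list was reduced to its 6820 widest peaks, 1 gene had a covered base in the parental line, and 3, 2, 2 and 3 did in R100, R500, R1000 and R4000. All genes then stood at 9.70%, 14.2%, 12.5%, 12.3% and 14.0%. In R100 the genes left were Tet1 with 1650 bases, Dnmt1 with 300 and Dnmt3b with 250, and the narrowest peak kept was 200 bp wide. In R500 only Tet1 and Dnmt3b were left of the 8 genes, with 1600 and 200 bases.

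The amounts covered were small at all genes but Tet1. Summed over the 8 windows, which span 529 kb, peaks covered 600 bases in the parental line, then 3100 in R100 and 2450 in R500, and 750 in R1000 and 950 in R4000. Tet1 alone held all 600 bases of the parental line and 54.8%, 77.6%, 86.7% and 63.2% of the bases in R100, R500, R1000 and R4000. The other 7 genes held 0, 1400, 550, 100 and 350 bases. The median over the 8 genes was 0, 175, 50, 0 and 0 bases, beside a median of 0 over all genes in each line. The windows held 41 peaks in all, with a median width of 100 bp, and 14 of them were a single 50-bp bin. None of the 41 peaks covered a coding base.

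**Figure D2:**
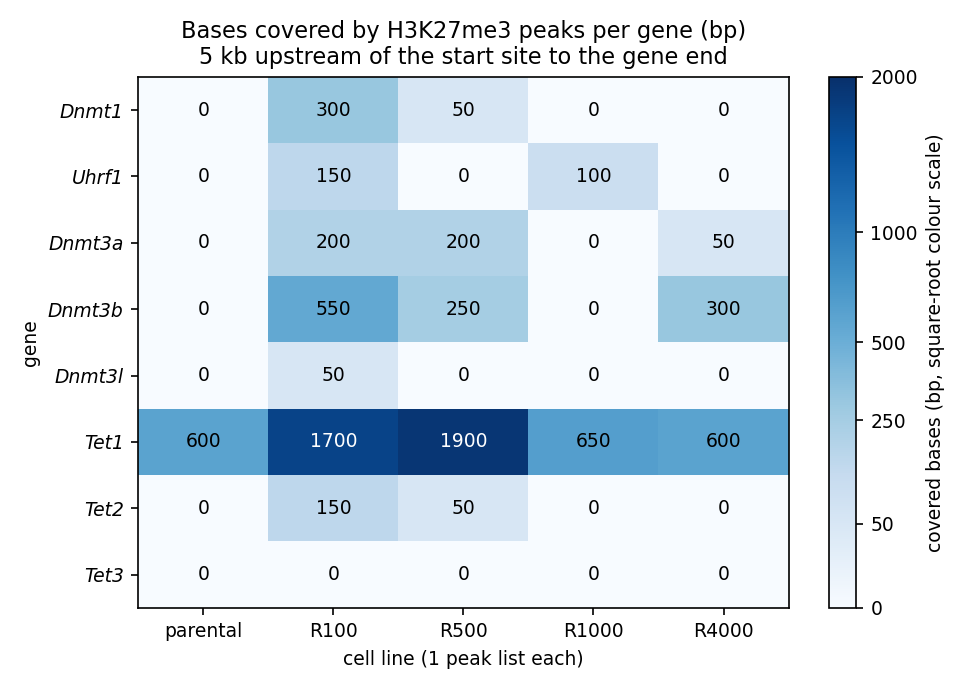
Bases covered by H3K27me3 peaks (bp, printed in each cell and shown by a square-root colour scale) for each gene (rows) and cell line (columns). Tet1 is covered in all 5 lines, from 600 to 1900 bp, Tet3 in none, and the other 6 genes have no covered base in the parental line.

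Dnmt1 and Uhrf1, the enzyme and the partner that copy methylation after replication, had no covered base in the parental or R4000 line. The window of Dnmt1 (ENSMUSG00000004099.8, chr9:20711650-20757317, minus strand) held 0 bases in the parental line, 300 and 50 in R100 and R500, and 0 and 0 in R1000 and R4000. The R100 peak lay 417 to 716 bp downstream of the GENCODE start site, and the R500 peak 817 to 866 bp downstream. Both were intronic and they shared 0 bases, so the lines had no bin in common. In the parental, R1000 and R4000 lines the nearest peak lay 18.3 to 18.6 kb from the window. The window of Uhrf1 (ENSMUSG00000001228.8, chr17:56442744-56462909, plus strand) held 0 bases in the parental line against 150 in R100 and 0 in R500, with 100 in R1000 and 0 in R4000. The R1000 peak lay 207 to 306 bp downstream of the start site, with 34 exonic bases, and the R100 peak, in the intron, began at the next base, at 307 bp. Uhrf1 was the only member other than Tet1 with a covered base in R1000, and it had none in R500.

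Dnmt3a and Dnmt3b, which methylate DNA de novo, differed in how their peaks lined up between lines. The window of Dnmt3a (ENSMUSG00000020661.9, chr12:3806007-3914443, plus strand) held 0 bases in the parental line, then 200 in R100 and 200 in R500, and 0 in R1000 and 50 in R4000. In R100 they lay in peaks of 150 and 50 bp that began 2856 and 756 bp upstream of the start site. In R500 there were peaks of 50 bp starting 3906 and 2306 bp upstream and a peak of 100 bp that began 144 bp downstream, and in R4000 a peak of 50 bp that began 1306 bp upstream. No base of Dnmt3a was covered in more than 1 line, although R100 and R500 had equal sums. RefSeq places 3 start sites of Dnmt3a 973, 1153 and 85737 bp downstream of the GENCODE start. Their promoters hold 46, 47 and 18 CpG in 300 bases. Of all RefSeq promoters, 98.3%, 98.5% and 69.4% hold fewer. All 6 peaks of Dnmt3a ended upstream of all 3 sites.

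The window of Dnmt3b (ENSMUSG00000027478.9, chr2:153475186-153513466, plus strand) held 0 bases in the parental line, 550 and 250 in R100 and R500, and 0 and 300 in R1000 and R4000. It was the most covered gene after Tet1 in R100, R500 and R4000. In R100 there were peaks of 150 and 50 bp upstream of the start site, 1 of 100 bp in an exon, 115 to 214 bp downstream, and 1 of 250 bp in the intron, 515 to 764 bp downstream. The R500 peaks lay 415 to 614 and 765 to 814 bp downstream, and the R4000 peak 315 to 614 bp downstream. The same 100 bases were covered in R100, R500 and R4000, and they are the capitals of the Dnmt3b sequence above. Between pairs of lines, R100 and R500 shared 100 bases, R100 and R4000 shared 100, and R500 and R4000 shared 200. The downstream peaks also lie in 7530422B04Rik, so they cannot be given to 1 of the overlapping genes. In R4000, 3.59% of protein-coding genes had more covered bases than Dnmt3b, against 8.84% in R100 and 11.9% in R500. The genes whose covered bases over the 5 lines came nearest to those of Dnmt3b were Fam194a, Irf5 and Lrrc16b, each at a summed absolute difference of 100 bases. Irf5, which encodes an interferon regulatory factor, held 0, 500, 300, 0 and 300 bases in the order from the parental line to R4000.

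Dnmt3l, the catalytically inactive partner of the de novo enzymes, had 1 peak of 50 bp, in R100. Its window (ENSMUSG00000000730.7, chr10:77504692-77526367, plus strand) held 50 bases in R100 and 0 in the parental, R500, R1000 and R4000 lines. The peak covered exonic bases 359 to 408 bp downstream of the GENCODE start and 19 to 68 bp downstream of a RefSeq start. It also overlaps Aire, the neighbouring autoimmune regulator gene. The nearest peaks of the other 4 lines lay 4.03 to 5.68 kb outside the window.

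**Figure D3:**
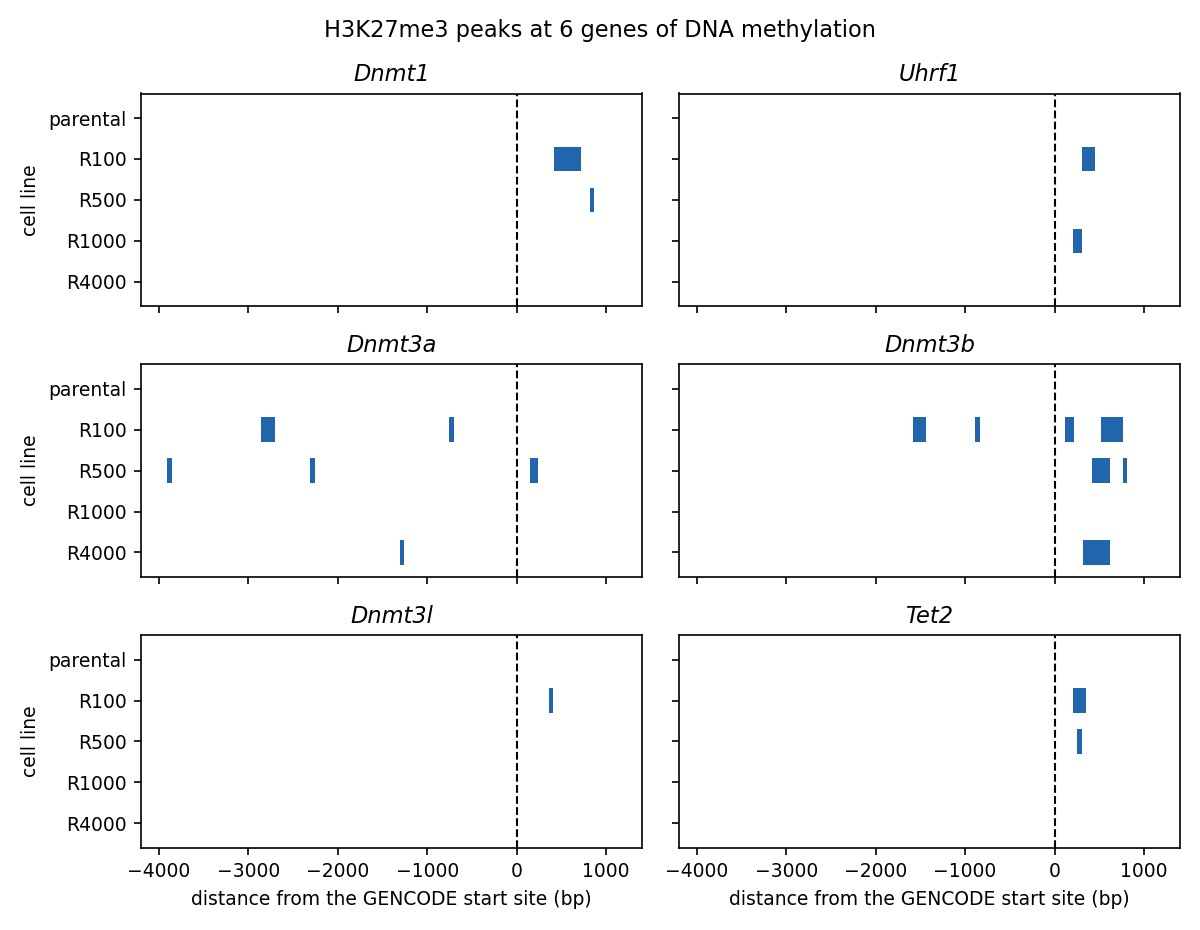
Position of each H3K27me3 peak (blue bars, drawn to scale) relative to the GENCODE start site (dashed line, horizontal axis in bp, upstream to the left) of 6 genes, with 1 row per cell line. The row of the parental line is empty in each panel, and the bars of R100, R500 and R4000 overlap at Dnmt3b and at no base of Dnmt3a.

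The 3 Tet genes ran from the most to the least covered of the members. Tet2, the Tet gene often mutated in blood cancers, had 0 bases in the parental line against 150 in R100 and 50 in R500, with 0 in R1000 and 0 in R4000 (ENSMUSG00000040943.7, chr3:133126643-133207354, minus strand). The R100 peak lay 204 to 353 bp downstream of the start site, which is the same in GENCODE and RefSeq, and the R500 peak was the 50 bp at 254 to 303 bp. All of the R500 peak thus lay within the R100 peak. The Tet2 promoter holds 57 CpG in 300 bases, and 99.8% of RefSeq promoters hold fewer. In the parental line the nearest peak to the Tet2 window was 1621 kb away. Tet3 (ENSMUSG00000034832.8, chr6:83312367-83391672, minus strand) had 0 covered bases in all 5 lines. Over all genes, 57.2% had no covered base in any line. The nearest peak to the Tet3 window lay 21.2 kb away in the parental line, 12.5 and 44.9 kb in R100 and R500, and 12.7 and 125 kb in R1000 and R4000. The Tet3 promoter holds 22 CpG, and 76.1% of promoters hold fewer.

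Tet1, the Tet gene best known from embryonic stem cells, was the 1 member with a covered base in every line, which held for 6.93% of protein-coding genes. Its window (ENSMUSG00000047146.8, chr10:62267318-62361866, minus strand) held 600 bases in the parental line, then 1700 in R100 and 1900 in R500, and 650 in R1000 and 600 in R4000. The R100 and R500 values are the high ones, and the parental, R1000 and R4000 values lie within 50 bases of each other. In those 5 lines 2.73%, 2.99%, 2.31%, 2.73% and 1.98% of protein-coding genes had more covered bases, so the rank of Tet1 among genes moved little while its covered bases did. The genes nearest to it were Ckb, the brain creatine kinase, at a summed absolute difference of 200 bases, then Dlk2 at 350 and 2700081O15Rik at 400. Ckb held 600, 1700, 1750, 650 and 650 bases.

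Most of the Tet1 bases lay in 1 region at the start site that RefSeq gives. The GENCODE start lies 11794 bp further upstream, so rules set on the GENCODE start miss the region, which is intronic in that annotation and holds 0 of its exonic bases. The region, chr10:62348901-62350500, was set as the R500 peak over the RefSeq start. It is 1600 bp wide and runs from 428 bp upstream to 1171 bp downstream of that start. It holds 94 CpG and has a GC content of 58.6%, beside 41.8% for the genome, with an observed over expected CpG ratio of 0.694 beside 0.191. Within it the parental line had 4 peaks and 600 covered bases, R100 had 1 peak of 1250 bp, R500 had 1 peak of 1600 bp, R1000 had 3 peaks and 500 bases, and R4000 had 3 peaks and 550 bases. R500 thus filled the region by definition. In R100 a single unbroken peak covered 1250 bases of the region. The parental, R1000 and R4000 lines held separate narrower peaks there, and the widest were 300, 250 and 350 bp.

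The start site itself was covered in R100 and R500 and in no other line. Within 250 bp on both sides of it, peaks covered 72 bases in the parental line, 329 and 501 in R100 and R500, and 79 and 100 in R1000 and R4000. The parental bases there are the ones upstream of the start, in capitals in the promoter sequence above, whereas the nearest peaks of R1000 and R4000 began 172 and 122 bp downstream. Bases covered in all 5 lines came to 150, in 3 blocks of 50 bp that began 372, 772 and 1022 bp downstream of the start. All 600 parental bases were covered in R500, 450 in R100, 300 in R1000 and 200 in R4000. R1000 and R4000 shared 250 bases. Near-equal sums in the parental, R1000 and R4000 lines thus lay only in part on the same bases. Elsewhere in the Tet1 window the parental line had 0 covered bases, R100 had 450, R500 had 300, R1000 had 150 and R4000 had 50, in peaks of 50 to 200 bp.

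**Figure D4:**
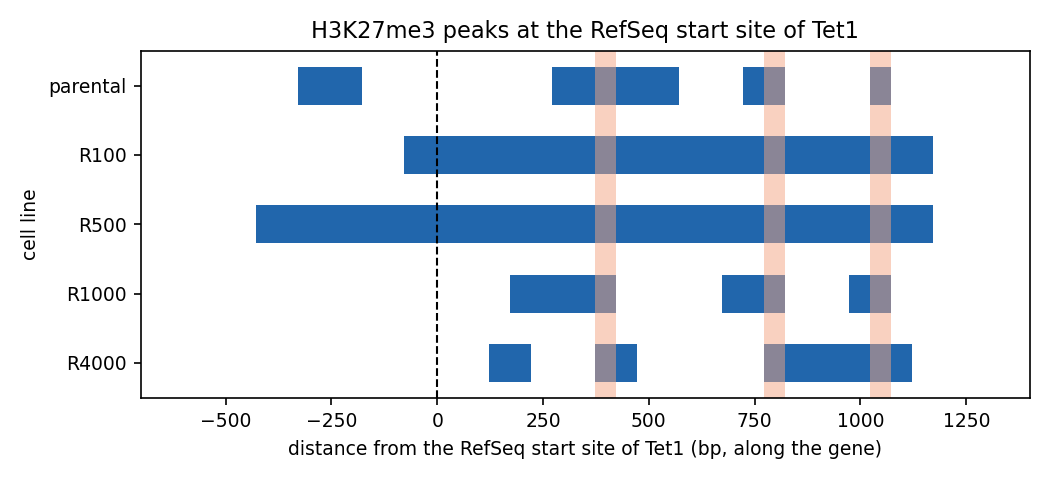
H3K27me3 peaks (blue bars, to scale) by distance from the RefSeq start site of Tet1 (dashed line, horizontal axis in bp along the gene), with 1 row per cell line. Shaded columns are the 3 blocks of 50 bp covered in all 5 lines, and the dashed line is crossed by a bar in R100 and R500.

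Counted from RefSeq start sites, which could be placed in mm9 for all 8 members and 15599 protein-coding genes, 1 member had a covered base within 2 kb for the parental line, 7 and 5 for R100 and R500, and 2 each for R1000 and R4000. All genes with a placed start stood at 8.90%, 31.3%, 23.3%, 13.7% and 12.4%. Every placed start of a gene was used, 15 for the 8 members and 29850 for the 24534 genes matched in all. The members thus had more starts per gene, and the part of this in their counts was not tested. The difference from the GENCODE start came from Tet1, which joined in all 5 lines, and from Dnmt3a, which dropped out in R4000. At the 7 genes other than Tet1 the peaks were narrow and most lay just inside the gene. Of 20 peaks, 50 to 300 bp wide, 13 lay within 1000 bp downstream of the GENCODE start and 7 lay upstream. Among the peaks within 2 kb of a start, 6 of 9 member peaks in R100, 5 of 5 in R500, 1 of 1 in R1000 and 1 of 2 in R4000 lay in these 1000 bp. Over all protein-coding genes the shares were 40.5%, 35.6%, 36.3% and 40.7% in those lines. Only peaks wholly inside these 1000 bp were counted, so a peak across the start or wider than 1000 bp was not. The member peaks compared are at most 300 bp wide, and the peaks of all genes had no such limit. The member peaks are few and not independent, since Dnmt3b alone held 4 in R100 and 2 in R500. The places also depend on the annotation. The R500 peak of Dnmt3a, downstream of the GENCODE start, lay upstream of the nearest RefSeq start.

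The promoters of the members were searched for E-box letters, the sites read by Myc and by E proteins such as E2a, on both strands of the 300 bases from RefSeq (250 upstream and 50 downstream of each start). CACGTG was present in 2 of 15 member promoters and 7.15% of all 32851 promoters, CAGCTG in 2 and 16.3%, and CAGGTG in 3 and 20.2%. The members with CACGTG were Dnmt3a and Dnmt3l, those with CAGCTG were Dnmt3l and Tet3, and those with CAGGTG were Dnmt1, Dnmt3b and Dnmt3l. The Tet1 promoter held none of the 3 words within this window. In the 300 bases of the Tet1 first intron printed above, CACGTG was present 1 time, starting 1023 bp downstream of the RefSeq start within a block covered in all 5 lines, and CAGCTG and CAGGTG were not present.

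The wider machinery of DNA methylation, 35 other genes listed by role, had a covered base at 5 genes of the parental line, at 16 and 14 of R100 and R500, and at 8 and 7 of R1000 and R4000. These are 14.3%, 45.7%, 40.0%, 22.9% and 20.0% of the list, beside the 12.9%, 34.3%, 27.2%, 16.1% and 14.0% of all genes. No covered base was found in any line at 14 of the 35 genes, or 40.0% against 57.2% of all genes. A covered base in R100 or R500 and in no other line was found at 11, or 31.4% against 18.9% of all genes. These counts use the window that grows with gene length, and window lengths in this list are not given here. By role, peaks were found in R100 at 4 of 6 maintenance partners and homologues, 1 of 8 readers of methylated DNA, 6 of 9 genes of base excision and deamination, 1 of 5 Tet partners and cofactors, 2 of 3 CXXC proteins, 1 of 2 genes of methyl donor supply and 1 of 2 imprint guards. In R500 the counts in the same order were 1, 3, 4, 3, 2, 1 and 0. Base excision and deamination thus had the most genes covered in both lines, but it is also the longest list. Its share in R100, 6 of 9, was not above the 4 of 6 maintenance partners and homologues or 2 of 3 CXXC proteins. In R500 its 4 of 9 was a lower share than those of the Tet partners and cofactors, CXXC proteins and methyl donor supply. The counts of base excision and deamination, the maintenance partners and homologues and the imprint guards were higher in R100. The counts of the readers and of the Tet partners and cofactors were higher in R500, with few genes in each role.

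Genes of these lists with at least 500 covered bases in any line were Uhrf2, Apobec3, Gadd45g and Mat2a. Uhrf2, the relative of Uhrf1, held 0 bases in the parental line against 600 in R100 and 550 in R500, with 200 in R1000 and 0 in R4000. It thus had more covered bases than Uhrf1 in R100, R500 and R1000. Apobec3, a cytidine deaminase, held 0, 500, 400, 250 and 300 bases in that order, without a parental peak like Dnmt3b. Gadd45g, a stress gene of a family linked to active demethylation, held 1337, 3187, 2537, 1150 and 750 bases, more than Tet1 in each line. Mat2a, which makes the methyl donor S-adenosylmethionine, held 50, 400, 350, 100 and 500 bases, and R4000 was its highest line. With Kdm2a, a CXXC protein that binds unmethylated CpG, Gadd45g and Mat2a were the 3 genes of the lists covered in all 5 lines, or 8.57% of the 35 against 6.93% of all genes.

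Markers of lineages stood beside the members as follows. Of 8 B-cell genes, 0 had a covered base in the parental line, 4 each in R100 and R500, and 3 each in R1000 and R4000, and of 5 T-cell genes 2, 3, 4, 1 and 2 did. The shares of all genes were 12.9%, 34.3%, 27.2%, 16.1% and 14.0%. Cd79b, a part of the B-cell receptor, held 0, 1000, 150, 150 and 0 bases, and Ebf1, a factor of early B cells, held 0, 900, 350, 0 and 100. Cd4 held 200, 700, 150, 0 and 0 bases. Gata3, the T-cell factor, held 1800, 5650, 6100, 1200 and 400 bases, with R100 and R500 as the high lines, as at Tet1.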

How the data were processed

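H3K27me3 ChIP-seq peak lists of 5 lines were analysed, 1 sample per line and assay by its label. RRBS of the same lines (5 samples) was not analysed here. The authors compared immunoprecipitated with input libraries in windows along the genome by Poisson statistics and deposited 3 columns, the chromosome, start and end, in base pairs and with no score. The submitters' processing notes name Bowtie and mm9, without a version. The study made 2 replicates per line, and the threshold of the lists and whether they pool the replicates are not given in the sources used here. Each peak stands 2 times in the lists of R100 and R500 and was counted once. All peaks lie on a grid of 50 bp and within the chromosome lengths of NCBIM37.

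The members and all gene lists were chosen with earlier results of these data known. Covered bases were summed with numpy 2.4.6 (Python 3.11.15) and equalled those of bedtools 2.31.1 in all 111835 pairs of gene and line. On simulated data 0 of 3000 intervals differed from a count by base. Genes on chromosomes 1 to 19, X and Y were used. RefSeq promoter sequences (GRCm38.p6, 250 bases before to 50 after the start) were placed in NCBIM37 by exact match with pysam 0.24.0, and 29850 of 32851 matched once. In the text, genes outside the members are those of the pathway and marker lists with at least 500 covered bases in a line, the 3 genes nearest in covered bases to each member with at least 500, genes overlapping a peak in a member window, and Cdkn2a. A gene of the marker lists that meets this rule is not reported here. Kdm2a and the genes holding a motif fall outside this rule or follow from a count, and were named after their values were seen. No p-value was computed. The alternatives were other windows, a minimum of 150 bases, peaks at least 100 or 500 bp wide, lists of equal number with ties in width broken by genome order, and joined peaks. Figures were drawn with matplotlib 3.10.9.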

Additional observations from a re-analysis of the deposited data

Results flagged for a closer look

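At Gadd45g, a gene of the base excision and deamination list, the number of covered bases minus that of the parental line was 1850 in R100 and 1200 in R500, whereas it was -187 in R1000 and -587 in R4000. At Gata3, a T-cell marker, the same differences were 3850 and 4300 in R100 and R500, and -600 and -1400 in R1000 and R4000. At both genes the lines moved in opposite directions from the parental line. This was not particular to Gadd45g and Gata3. From the parental line to R4000, Cd4 held 200, 700, 150, 0 and 0 bases, and Kdm2a held 100, 350, 350, 50 and 200. With 1 list per line, the difference between lines was not tested.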

How the results depend on the processing

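The count of members with a covered base and their summed bases were recomputed under 10 alternatives, and 50 of 90 values stayed within 1.5 times. R100 had the most summed bases in each setting but peaks at least 500 bp wide, where R500 did. Values beyond 1.5 times follow in the order from the parental line to R4000 where all 5 moved. The cause was not tested beyond what each setting leaves out. In the 5 kb upstream alone the counts were 0, 2, 1, 0 and 1 and the sums 0, 400, 100, 0 and 50 bases. Within 2 kb of the GENCODE start the parental count was 0 and that of R1000 1, and the sums were 0, 1250, 450, 100 and 350. With peaks at least 500 bp wide the counts were 0, 1, 1, 0 and 0 and the sums 0, 1250, 1600, 0 and 0. With the 6820 widest peaks per list the R100 count was 3 and the R500 count 2. A minimum of 150 covered bases gave 3 genes in R500 and 1 in R1000, and peaks at least 100 bp wide gave 3 in R500. With peaks within 1000 bp joined the parental sum was 1400, that of R100 4900 and that of R1000 1150. Without Tet1, an alternative chosen after seeing the data, the sums were 0, 1400, 550, 100 and 350. Counting from RefSeq start sites, also chosen after seeing the data, moved no value beyond 1.5 times, and neither did leaving out the upstream 5 kb. The lists give no depth, which limits every comparison of covered bases between lines. No paired analysis was possible because each line has 1 list, and for the same reason no replicate could be left out.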
